A study of Homo sapiens with 6 samples.

Results

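The H3K9me2 regions described here are those that were called in HCT116 cells with the KDM3 demethylases in place and were called again after these had been depleted. A region of the control list counted as a member when it shared at least 1 bp with a region of the list made after depletion, and this held for 4119 of 11645 control regions, or 35.4% (Wilson 95% confidence interval 34.5 to 36.2%). The list after depletion was much the longer, and with only its 11645 regions of highest score kept, 1713 control regions (14.7%) were members. Across all 4 lists of the series, 126184 regions were deposited. The remaining 7526 control regions met no region after depletion, and 84881 of the 88855 regions after depletion met no control region. Membership was chosen from the 2 measured lists themselves, so that the overlap is a description and was not tested. The cells, HCT116, are an established line from a human colorectal cancer with active β-catenin signalling, and they carried either a scramble shRNA (HCT116/Scrsh) or an shRNA against KDM3A together with KDM3B (HCT116/ABsh-1). Sample labels speak of siRNA and the study of shRNA. KDM3B ChIP, H3K9me2 ChIP and input were sequenced from each population, giving 6 libraries with 1 library per condition. HCT116/ABsh-1 is a single shRNA line, and the region lists hold no expression values by which the cell line or the depletion could be checked. As there were no replicates, every difference between the populations sets 1 library beside another, and the depth of either library is unknown because the lists give no read numbers.

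Dimethylation of lysine 9 on histone H3 is laid down mainly by the enzymes EHMT2 (G9a) and EHMT1 (GLP) and marks repressed chromatin, often as wide, shallow domains. KDM3A (JMJD1A) and KDM3B are demethylases that remove it, and in colorectal cancer cells they have been studied as partners of β-catenin at Wnt target genes. A ChIP-seq region is a run of windows in which the antibody pulled down more DNA than the input, so that only the densest part of a wide domain need be called. All regions here lay on a grid of 100-bp windows, so the smallest possible overlap in practice was 100 bp. The intervals given with shares reflect counting error alone, and regions that lie side by side are not independent of each other.

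The sequences of members are shown because members and the control regions that were not called again differed in base composition. All are from the forward strand of hg19, with CpG dinucleotides in capitals. The members in ASPG, PTGDS and near FTCD are the 3 whose regions widened by the largest number of bases.
near FTCD chr21:47575701-47575900: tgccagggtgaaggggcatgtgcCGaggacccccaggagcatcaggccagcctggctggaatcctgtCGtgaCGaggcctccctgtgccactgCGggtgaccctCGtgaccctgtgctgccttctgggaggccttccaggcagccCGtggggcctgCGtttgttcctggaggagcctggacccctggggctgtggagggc
ASPG chr14:104569701-104569800: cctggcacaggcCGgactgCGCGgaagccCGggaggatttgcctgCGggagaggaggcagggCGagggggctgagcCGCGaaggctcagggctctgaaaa
PTGDS chr9:139870401-139870500: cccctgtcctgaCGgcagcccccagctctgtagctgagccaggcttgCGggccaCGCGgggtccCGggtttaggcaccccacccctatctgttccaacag
The 3 members with the highest control score follow, each by its first 300 bases. The one near PRIM2 lay 1383388 bp from a TSS of that gene and 0.00347 Mb from an assembly gap. The word near here names only the closest protein-coding TSS, at any distance. The region holds a CENP-B box, the binding motif of a centromere protein that recurs in alpha satellite DNA. The stretches in PDE4DIP and DUX4L50 hold 19 and 10 CpG dinucleotides.
near PRIM2 chr6:58776301-58776600: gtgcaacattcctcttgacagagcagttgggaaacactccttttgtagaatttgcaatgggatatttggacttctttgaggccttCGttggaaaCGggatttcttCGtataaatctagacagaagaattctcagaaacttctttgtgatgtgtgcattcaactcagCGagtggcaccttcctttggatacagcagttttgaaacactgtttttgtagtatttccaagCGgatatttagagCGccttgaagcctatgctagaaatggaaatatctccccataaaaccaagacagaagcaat
PDE4DIP chr1:145075401-145075700: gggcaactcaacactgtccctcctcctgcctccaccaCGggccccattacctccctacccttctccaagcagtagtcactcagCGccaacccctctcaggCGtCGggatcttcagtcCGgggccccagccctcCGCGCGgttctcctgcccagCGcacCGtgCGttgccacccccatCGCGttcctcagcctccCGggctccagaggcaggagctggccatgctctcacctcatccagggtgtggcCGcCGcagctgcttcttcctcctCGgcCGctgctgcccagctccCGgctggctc
DUX4L50 chr9:68413201-68413500: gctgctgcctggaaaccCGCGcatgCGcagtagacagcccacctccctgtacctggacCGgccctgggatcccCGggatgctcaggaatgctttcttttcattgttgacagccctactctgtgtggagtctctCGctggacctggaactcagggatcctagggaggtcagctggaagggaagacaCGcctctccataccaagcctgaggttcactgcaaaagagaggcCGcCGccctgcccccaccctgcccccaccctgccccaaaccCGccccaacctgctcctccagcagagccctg
A member with the lowest GC content of all, 33%, lay in the first intron of SYN3, a synaptic vesicle gene, and holds no CpG within its 100 bp. The 300 bp around its centre hold 17, however, and it lay 436 bp from a TSS of SYN3.
SYN3 chr22:33410901-33411000: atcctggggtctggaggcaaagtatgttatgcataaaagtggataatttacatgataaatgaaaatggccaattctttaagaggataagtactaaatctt
A member with a strong internal period lay in LINC00111, a long non-coding RNA gene. Its central 300 bases are printed with every other stretch of 84 bp, the period of highest identity, in capitals. A shorter unit repeats within each full stretch.
LINC00111 chr21:43109351-43109650: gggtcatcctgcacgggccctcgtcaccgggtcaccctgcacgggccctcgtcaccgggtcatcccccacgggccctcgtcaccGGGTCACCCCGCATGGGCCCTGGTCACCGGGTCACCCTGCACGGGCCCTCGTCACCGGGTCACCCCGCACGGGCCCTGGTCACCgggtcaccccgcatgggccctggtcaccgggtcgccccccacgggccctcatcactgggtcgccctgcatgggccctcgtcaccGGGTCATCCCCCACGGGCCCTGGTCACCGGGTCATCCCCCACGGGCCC
The 2 highest-scoring control regions of up to 300 bp that were not called again, the first of them in PDE4DIP like a member above, are set beside them, again with CpG in capitals. The one near RP11-685N3.1 also lay next to an assembly gap and holds a CENP-B box.
PDE4DIP chr1:144992901-144993200: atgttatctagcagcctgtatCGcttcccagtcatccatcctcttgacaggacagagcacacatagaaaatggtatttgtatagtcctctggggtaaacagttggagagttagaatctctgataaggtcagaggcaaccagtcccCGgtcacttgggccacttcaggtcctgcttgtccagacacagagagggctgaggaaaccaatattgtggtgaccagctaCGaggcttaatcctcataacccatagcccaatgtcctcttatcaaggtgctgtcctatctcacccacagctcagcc
near RP11-685N3.1 chr2:92321001-92321200: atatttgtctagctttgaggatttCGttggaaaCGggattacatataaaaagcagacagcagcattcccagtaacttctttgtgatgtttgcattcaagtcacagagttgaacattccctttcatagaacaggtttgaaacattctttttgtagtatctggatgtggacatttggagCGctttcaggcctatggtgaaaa

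Members were GC-rich and the control regions that were lost were not. The median GC content was 65% in members (quartiles 61 and 68%) and 46% in control-only regions (quartiles 40 and 53%). A GC content of at least 60% was held by 3312 members, or 80.4%, and by 847 control-only regions, or 11.3%. A GC content under 50% was held by 127 members, or 3.08%, and by 4872 control-only regions, or 64.7%. The regions that were new after depletion resembled the members in this respect, with a median GC content of 62.3% and 68.5% of them at 60% or above. CpG dinucleotides numbered a median of 13 in the 300 bp around the centre of a member, 2 in control-only regions and 9 in new regions.

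The share of control regions that were called again rose across GC classes. Of 708 control regions with a GC content under 35%, 3 were members, or 0.424% (0.144 to 1.24%). The share was 16.3% (14.4 to 18.4%) between 50 and 55% GC and 39.5% (36.7 to 42.3%) between 55 and 60%. Between 65 and 70% GC, 1499 of 1745 control regions were members, or 85.9% (84.2 to 87.5%), and at 70% and over the share was 85.1%. The gradient was also present at a fixed width, as control regions of exactly 100 bp went from 0.479% in the lowest class to 83.8% in the highest. With the list after depletion shortened to its 11645 regions of highest score, the corresponding shares were 0.141% and 39.5%. KDM3B regions of HCT116/Scrsh, treated in the same way against the KDM3B list of HCT116/ABsh-1, were called again in 6.9% of cases under 35% GC. The share was between 25.9 and 28.4% in each class from 45 to 70%, and 34.8% at 70% and over. The KDM3B list shortened from 17638 to 8046 regions after depletion, whereas the H3K9me2 list grew from 11645 to 88855. The 2 sets of shares therefore rest on unlike list lengths. The part of a difference in GC representation between the libraries in this gradient was not tested.

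**Figure D1:**
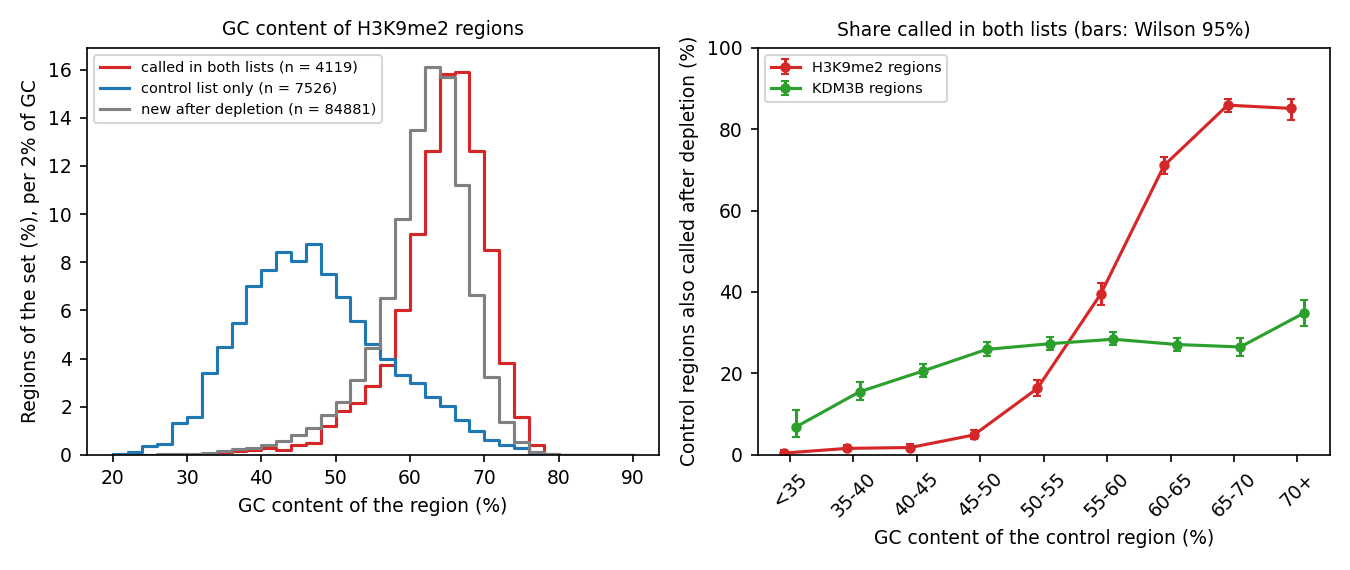
Left, GC content (%) of H3K9me2 regions called in both lists, in the control list only and new after depletion, each as a percentage of its set per 2% of GC. Right, share of control regions called again after depletion (%) by GC class, with Wilson 95% intervals, for H3K9me2 and KDM3B. Members and new regions peak above 60% GC and control-only regions below 50%, and the H3K9me2 share climbs from 0.424 to 85.1%.

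At a given GC content of the region itself, the share also differed by the number of CpG dinucleotides in the 300-bp window. This window reaches past narrower regions, and GC content was not held fixed over it. CpG density and the GC content of the flanks therefore cannot be told apart here. Among control regions of 60 to 65% GC, 31.5% were members when the 300-bp window held at most 4 CpG dinucleotides, 60.6% with 5 to 9, 80.6% with 10 to 14 and 88.1% with 15 or more. Among those of 55 to 60% GC the same classes gave 18.3, 41.2, 59.6 and 78.6%. Nearness to a transcription start site (TSS) moved the share by less. At 60% GC or more, 83.2% of control regions within 5 kb of a TSS and 75.4% of those farther away were members, and under 50% GC the values were 3.47 and 2.25%.

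Width and score in HCT116/Scrsh also went with being called again. The share of members rose from 28.2% of 100-bp control regions to 81.7% of those of 500 bp or more, as an overlap rule favours wide regions. Within regions of at least 60% GC it rose from 72.6 to 98.5%, whereas under 50% GC it went from 1.97 to 17.9%. The authors' score, a whole number whose meaning the study does not name, served here for ranking inside each list. Members made up 20.2% of the control regions at or below the lower quartile of the score, 11, and 59% of those above the upper quartile, 20. Above the upper quartile, 93.2% of regions with at least 60% GC and 6.37% of those under 50% GC were members.

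Most members were wider after depletion. Each member was compared with its match, the region after depletion that shared the most bases with it. The median width of members was 100 bp before (quartiles 100 and 200 bp) and 400 bp after depletion (quartiles 200 and 800 bp). The match was wider for 3268 members, or 79.3% (78.1 to 80.5%), of equal width for 583, or 14.2%, and narrower for 268, or 6.51%. It was at least 2 times as wide for 2913 members (70.7%), at least 5 times for 1233 (29.9%) and at least 10 times for 429 (10.4%). The bases of all members summed to 737100 in HCT116/Scrsh, and their matches, each counted a single time, covered 2244500. These shares are to be read against a list after depletion in which 58.7% of all 88855 regions exceeded 100 bp. Regions new after depletion had a median width of 200 bp, so the matches of members were wider than the rest of their own list, though an overlap rule picks wide regions more readily.

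The control region mostly stayed inside its match. The whole control region lay inside its match for 3627 members (88.1%), and for 476 both ends were the same. The match extended past the control region on both sides for 1820 members (44.2%), on 1 side only for 1584 (38.5%) and on neither for 715 (17.4%). A shift, longer on 1 side and shorter on the other, was seen for 253 (6.14%). Extension had no preferred side along the chromosome, with a mean of 221.3 bp to the left and 219.2 bp to the right. In the 2339 members inside protein-coding gene bodies, the mean extension was 242.4 bp towards the start of the gene and 228.1 bp towards its end. The start side was the longer in 906 of them and the end side in 837.

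**Figure D2:**
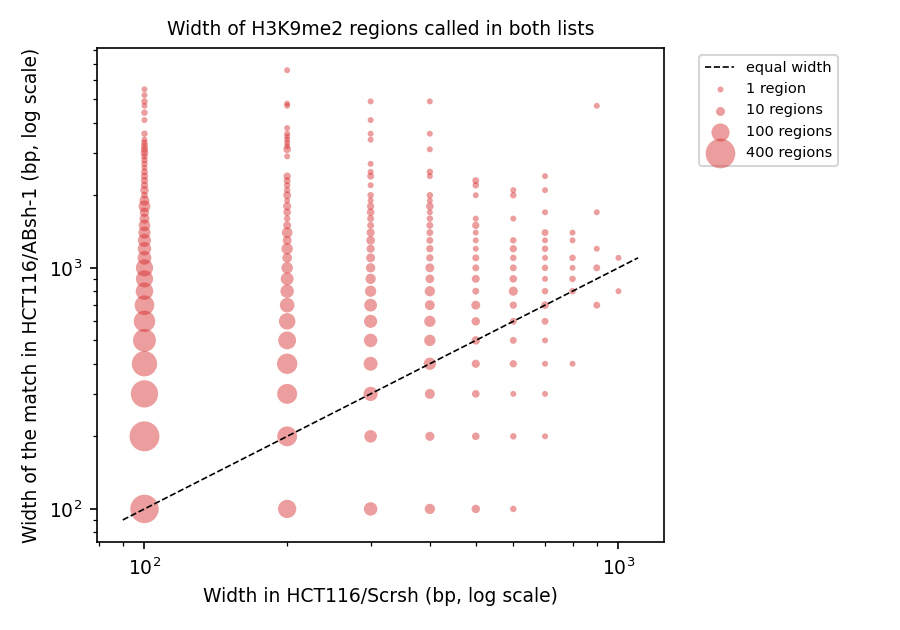
Width in HCT116/ABsh-1 (bp, log scale) against width in HCT116/Scrsh (bp, log scale) for the 4119 regions called in both lists. Each circle is 1 pair of widths, its size grows with the number of regions, and the dashed line marks equal width, above which 3268 regions lie.

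The width before depletion said little about the width after it. Across members, Spearman's rho between the 2 widths was 0.147 and between the 2 scores 0.125, as a description over 4119 regions from the same pair of libraries. Members of 100 bp, which cannot become narrower, were wider in 85.1% of cases, and members of 500 bp or more in 62.4%, with 27.5% of the latter narrower. The median match grew from 400 bp for members of 100 bp to 800 bp for those of 500 bp or more. Within its list, score followed width closely, with a rho of 0.868 in the control and 0.955 among matches. Members ranked at a median percentile of 67 by score in the control list and their matches at 82.4 in the list after depletion, while control-only regions ranked at 40.1.

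The 10 members with the largest gain lay in or beside genes of varied function. Near FTCD, a folate and histidine metabolism gene, chr21:47575701-47575900 (200 bp, 307 bp from the TSS) was matched by chr21:47569501-47576100 (6600 bp). In the sixth intron of ASPG, an asparaginase gene, chr14:104569701-104569800 was matched by a region of 5500 bp, which is 55 times as wide. At PTGDS, a prostaglandin D2 synthase gene, chr9:139870401-139870500 was matched by 5200 bp. KCNT1, a sodium-activated potassium channel gene, held a 100-bp member in its second intron with a match of 4900 bp. PVALEF, a gene of the parvalbumin family, held 2 members of 100 and 400 bp that fell into the same region of 4900 bp. The other 4 lay in LRRC56, EXD3, the uncharacterized gene ENSG00000256982 and 66967 bp from ZNF469, with matches of 4700 to 4900 bp. All 10 were 0.553 to 2.78 Mb from the end of their chromosome, and all but 1 of them had a GC content of 61% or more. The exception was the 100-bp member of PVALEF, at 41%.

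Members that became narrower by the most were wide in HCT116/Scrsh. The regions nearest SALL1, a developmental zinc finger factor, and SYK, a tyrosine kinase, both went from 600 to 100 bp. A region 144 bp from the TSS of COL17A1, a hemidesmosomal collagen, went from 500 to 100 bp, a loss that it shared with other members.

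The size of the gain went with position. Of the 268 members that narrowed, 39.2% (33.5 to 45.1%) had a centre within 5 kb of a TSS, against 43.1% of those of equal width, 54.7% of those that gained 200 to 300 bp and 62.1% (57.4 to 66.7%) of the 412 that gained more than 1000 bp. The share within 2 Mb of a chromosome end was 5.22% (3.14 to 8.58%) among narrowed members, 8% at a gain of 200 to 300 bp and 22.8% (19 to 27.1%) at a gain over 1000 bp. The median GC content rose from 60.1 to 65.5% over the same classes. The classes also differed at the start, since members of 100 bp cannot narrow. The median width in HCT116/Scrsh was 300 bp among narrowed members and 100 bp in every other class. The median control score was 37.5 among narrowed members and 14 at a gain over 1000 bp. Position was not compared at a fixed starting width. Spearman's rho of the gain was 0.191 with GC content and -0.163 with distance to the chromosome end.

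**Figure D3:**
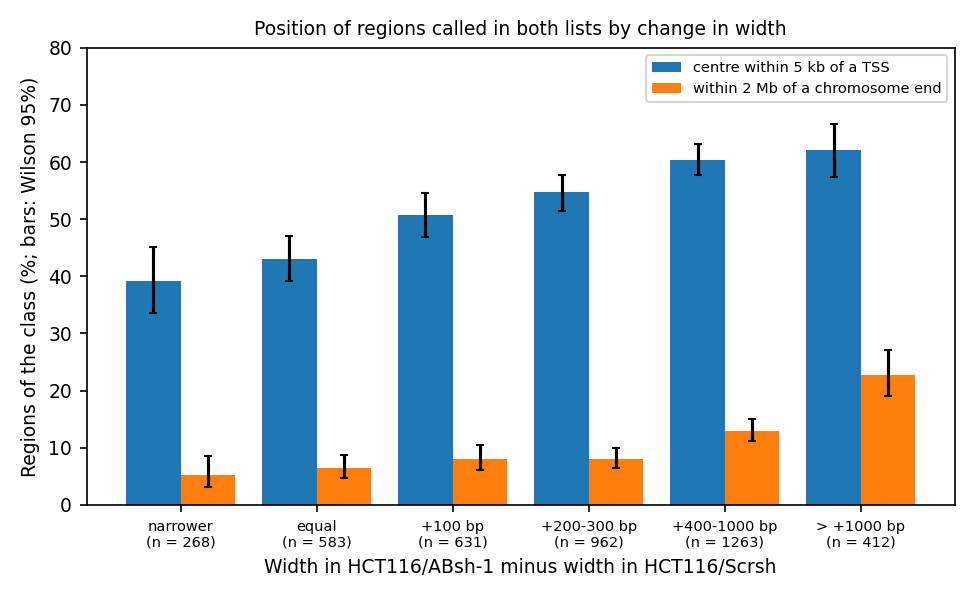
Percentage of regions called in both lists whose centre lay within 5 kb of a TSS, and percentage within 2 Mb of a chromosome end, by width in HCT116/ABsh-1 minus width in HCT116/Scrsh. Bars show Wilson 95% intervals, and both percentages are higher in the class above 1000 bp (62.1 and 22.8%) than among narrowed regions (39.2 and 5.22%). Regions of 100 bp in HCT116/Scrsh cannot be among the narrowed.

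In some places neighbouring members were joined. The 4119 members had 3971 different matches, of which 123 held 2 members, 11 held 3 and 1 held 4. The last was chr17:81099701-81103300, in ENSG00000262898, where 4 members with 1000 bp in all lay in 1 region of 3600 bp. In JPH3, a junctophilin gene, 3 members with 300 bp in all lay in chr16:87703101-87706100, a region of 3000 bp. Similar fusions of 3 members were found at MIR9-3HG, a microRNA host gene, at MUC6, a gastric mucin gene, and at chr16:33942701-33944700 with 2300, 2000 and 2000 bp. In the opposite direction, 3 members met 2 regions after depletion.

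Around members, H3K9me2 cover was higher after depletion beyond the region itself. In the 5 kb on either side, excluding the region and its match, the mean number of bases called was 55.5 before and 795.9 after depletion. Cover was higher after depletion for 2791 members (67.8%), equal for 1189 and lower for 139. Over all control regions 40.8% had more cover after depletion, and over control-only regions 26.1%. Control-only regions have no match, so only the region itself was left out for them. Once GC content was at least 60%, the shares were closer, with 69.1% of members and 59.9% of control-only regions. Under 50% GC they were 52% and 15.5%. Of the assembled genome, the control list covered 0.059% and the list after depletion 0.966%.

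Members lay closer to genes than the control regions that were lost. The centre was within 5 kb of an annotated TSS for 2221 members, or 53.9% (52.4 to 55.4%), for 27.6% (26.6 to 28.6%) of control-only regions and for 53.9% of new regions. Counting only canonical TSSs of protein-coding genes, the shares were 21.8, 5.09 and 19.2%. Promoters, taken as the 3 kb before a TSS, held 1010 members (24.5%), 10.5% of control-only regions, 25.3% of new regions and 10.8% of the assembled genome. With canonical protein-coding TSSs alone, promoters held 5.56% of members and 1.99% of the genome. Coding exons held 348 members (8.45%), 1.26% of control-only regions, 3.84% of new regions and 0.476% of the genome. Introns held 27.1% of members and 44.6% of control-only regions, and distal intergenic DNA held 20.3 and 31.3%. The stretch within 2 Mb of a chromosome end, 2.76% of the assembled genome, held 438 members (10.6%), 1.86% of control-only regions and 14.1% of new regions.

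With widening, H3K9me2 regions came to include more start sites, and a wider region has more room to hold one. An annotated TSS lay inside the control region for 287 of the 4119 members and inside the match for 643. Bases went from 737100 in members to 2244500 in their matches, each match counted a single time. Regions of the other sets that hold a TSS were not counted, so these numbers have no background. For 396 members, the match held a TSS of a gene whose TSSs all lay outside the control region. The canonical TSS of a protein-coding gene was inside a member for 69 genes and inside a match for 159. The members with a TSS of a Wnt target within 5 kb were small. One lay in the first intron of ID2-AS1, 2325 bp from the TSS of ID2, an inhibitor of differentiation, and went from 100 to 600 bp (chr2:8816601-8816700). The other lay 1022 bp from the TSS of TCF7, which encodes the transcription factor TCF1, and went from 100 to 700 bp (chr5:133449301-133449400).

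Gene lists were set beside the background of all genes. Of 64449 annotated genes 2586 (4.01%) had a member within 5 kb of a TSS, and of 20163 protein-coding genes 1357 (6.73%) did. Of the 31 Wnt target genes that the study lists, 2 did (6.45%), a share close to the background. Some H3K9me2 region after depletion lay within that distance of a TSS for 21 of the 31 (67.7%), beside 49.2% of protein-coding genes and 31.6% of all genes. None of the 20 genes for H3K9 methyltransferases and demethylases, among them KDM3A, KDM3B and JMJD1C, had a member. Some region after depletion lay within that distance for 8 of these 20 (40%). Of 45 genes of the Wnt pathway, 9 (20%) had a member, namely the ligand genes WNT2, WNT3, WNT3A, WNT5B and WNT10A, the receptor genes FZD1 and FZD7, and SFRP2 and DKK3 of the families of secreted Wnt antagonists. Collagen genes had a member in 16 of 44 cases (36.4%), including COL1A1, COL1A2 and COL2A1 of the fibrillar collagens and COL4A1 and COL4A2 of the basement membrane. HOX genes, which pattern the body axis, had one in 9 of 39 cases (23.1%), 4 of them the neighbours HOXD10 to HOXD13. Calcium channel genes of the CACNA family had one in 5 of 14 cases (35.7%) and potassium channel genes in 16 of 95 (16.8%). Olfactory receptor genes had one in 4 of 415 cases (0.964%) and zinc finger (ZNF) genes in 17 of 516 (3.29%). Nearer the background were protocadherin genes, with 5 of 66 (7.58%), and solute carrier genes, with 39 of 386 (10.1%). Genes for long non-coding RNAs had one in 737 of 18702 cases (3.94%). Within 5 kb of a TSS, 10.2% of protein-coding genes had some control region. This share was 9.68% for the Wnt targets, 38.6% for collagen, 23.1% for HOX, 42.9% for CACNA and 25.3% for potassium channel genes. It was 20% for genes of the Wnt pathway, 7.58% for protocadherin and 13.5% for solute carrier genes. With the list after depletion, the collagen, HOX, CACNA and potassium channel genes reached 81.8, 97.4, 100 and 80%. ZNF and olfactory receptor genes had 32.6 and 5.78%, protocadherin and solute carrier genes 36.4 and 62.2%, and Wnt pathway genes 68.9%. No list was tested, and neighbouring genes of a family can share a member.

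Several gene bodies held many members. A member lay in 1605 protein-coding genes, in 394 of them at least 2 and in 42 at least 5. DNAH17, an axonemal dynein heavy chain gene, held 12, all of them wider after depletion, with 2100 bp in members and 11400 bp in their matches. These bases leave out the 2 control-only and 56 new regions of the gene, and values for other genes are given in the same way. TBC1D22A, a gene for a Rab GTPase-activating protein, held 12 (2500 and 9200 bp) and GRK5, a kinase of G protein-coupled receptors, held 11 (2200 and 7400 bp). TRAPPC9 also held 11 (1400 and 4900 bp). TBC1D22A, GRK5 and TRAPPC9 held 4 control-only regions each, and 139, 67 and 160 new regions. JPH3 held 9 over 96.3 kb, all of them wider (1200 and 7100 bp), and no control-only region. SDK2, a cell adhesion gene, held 9 (1200 and 3600 bp). CBFA2T3, a transcriptional corepressor gene, held 5 (700 and 8600 bp). In PDE4DIP, by contrast, 3 of 6 members were wider (2500 and 3400 bp), beside 14 control-only and 12 new regions. These numbers also grow with the length of the gene, which was 412.8 kb for TBC1D22A.

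The share of control regions called again differed between chromosomes. It was 66.1% (59.8 to 71.8%) on chromosome 19, 58.4% on chromosome 22, 54.5% on chromosome 17 and 53.8% on chromosome 16. It was 15.4% (11.3 to 20.7%) on chromosome X and 9.82% (5.57 to 16.7%) on chromosome Y. Across the 24 chromosomes Spearman's rho between this share and the GC content of the chromosome was 0.669, a description from 1 pair of lists. The control regions themselves had a median GC content of 42% on Y, 46% on X, 61% on chromosome 22 and 64.5% on chromosome 19. On chromosome 21, with 40.8% GC, they had a median of 60%, and 47.7% were called again. The chromosomes were not compared at a fixed GC content of the control regions. Members were also unevenly spread. Of 1320 stretches of 1 Mb with a member, 67 held at least 10, and these held 1027 members. The other sets were not counted in this way, so these numbers have no background. The stretch of chromosome 16 from 87 to 88 Mb held 39 members among 51 control regions, and that from 89 to 90 Mb held 27 among 28. The last whole stretch of chromosome 22, from 50 Mb, held 27 among 30. The same stretches were also dense in new regions, with 309, 298 and 334.

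Few H3K9me2 regions of any set met KDM3B. A KDM3B region of HCT116/Scrsh overlapped 7 members (0.17%), 0.159% of control-only regions and 0.1% of new regions. A KDM3B region of HCT116/ABsh-1 overlapped 4 members (0.0971%), 0.0133% of control-only regions and 0.1% of new regions. Within 1 kb the numbers were 38 (0.923%) and 33 (0.801%), beside 0.611% of control-only regions and 2.82% of new regions for the KDM3B list of HCT116/Scrsh. Overlap in both KDM3B lists was found for 2 members, chr6:58776301-58776700 and a 300-bp region in DUX4L18 on chromosome Y. The former ranked at the top of the control H3K9me2 list with a score of 377 and overlapped the KDM3B region of rank 1 in each KDM3B list. It lay 0.00347 Mb from an assembly gap of at least 1 Mb, and 32.8% of its 50-base stretches were unique in hg19. The other 7 members that met KDM3B in either list included 2 regions of chromosome 2 within 0.018 Mb of such a gap. They also included 1 region of chromosome 7 with 30% unique stretches. Further ones lay 7658 bp from ANKRD30BL, 94550 bp from GSC and 888 bp from CD300A.

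The remaining members of high score or width also included repeated genes. PDE4DIP, a gene for a centrosomal and Golgi protein, held a member 132 bp from a TSS with a score of 289 that went from 700 to 1000 bp. A member in DUX4L50 scored 261 and went from 1000 to 800 bp, one near ANKRD30BL scored 237 (600 to 800 bp), and one in a coding exon of ANKFN1 scored 202 (900 to 700 bp). DUX4L genes are copies of DUX4, a homeobox gene of the D4Z4 repeat, and 7 members lay in them, a group picked out after its values were seen. Of these, 6 were matched by a wider region and the 1 in DUX4L50 by a narrower one. In DUX4L26 (700 to 1200 bp), none of the 50-base stretches was unique in hg19, so reads of that length could not be told from those of other copies. The study states that it retained only reads with a unique position, so why this region was called is unknown. PTGDR, the prostaglandin D2 receptor gene, held a 1000-bp member in its first coding exon that went to 1100 bp. Members of 900 bp besides the one in ANKFN1 included a region in DENND2B (to 700 bp). Others lay 263595 bp from FOXL1 (to 1000 bp) and 68117 bp from ZNF469 (to 4700 bp). Over all members, 99.4% of 50-base stretches were unique on average, and 15 members (0.364%) had fewer than 50% unique, beside 0.438% of control-only regions. The filter on reads favours unique sequence in every set. A tandem repeat was found in 17 members (0.413%), 0.106% of control-only regions and 0.0907% of new regions.

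At the edge of the rule, members and lost regions were close to each other. An overlap of 100 bp, a single window, was all that 2712 members (65.8%) shared with their match. For the 2389 members of 100 bp, however, this is the whole region. Only 103 members (2.5%) were overlapped over less than 50% of their width. The 5 with the smallest share overlapped were 600 bp wide and shared 100 bp, near MUC2, SALL1, NFATC1 and SYK and in ENSG00000288849. On the other side, 507 control-only regions (6.74%) directly adjoined a region after depletion without sharing a base, and 1145 (15.2%) had one within 1 kb. The first 5 of these by position were 100-bp regions nearest or in PRDM16, CAMTA1, VWA5B1, ENSG00000289710 and TIE1, with a GC content of 53 to 65%. The median GC content was 59% for the directly adjacent regions and 44% for the 5330 farther than 5 kb from any region after depletion.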

How the data were processed

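ChIP-seq of KDM3B and H3K9me2 in HCT116/Scrsh and HCT116/ABsh-1 was used, with 1 library per condition. The authors mapped reads to hg19 with Bowtie and retained those with a unique position. They compared ChIP with input in 100-bp windows by a Poisson model, and deposited 1 list of regions per ChIP library. Positions count from 1, and the score deposited by the authors is a number whose meaning is not given in the sources used here. The inputs were not used here, and the deposited fields hold no read numbers, so depth is unknown.

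A member's match was the region after depletion with the largest overlap. GC content came from the hg19 sequence, and genes from GENCODE release 44 in its hg19 version. Promoters had priority, then the 3 kb after a transcript, the 5′ and the 3′ UTR, coding and non-coding exons, introns and distal intergenic DNA. The CENP-B box, 2 GGAAT units and 2 TTAGGG units in a row were searched on both strands. Sequence marked as repeats was not used here. A tandem repeat was a period of 10 to 100 bp with at least 80% identity. No test was made between single libraries. Members and gene lists were chosen with earlier results of these data known. The regions named are the 10 with the largest gain, the 5 that narrowed most, the 5 of highest score, the 5 widest, the 5 matches that held the most members, the 5 nearest to either side of the overlap rule, and those at Wnt targets or at KDM3B regions. Equal widths or losses were ordered by place in the list, so these groups leave out members of the same width or loss. Of the 5 that narrowed most, 2 are not reported here. The scripts were tested on simulated data. Python 3.11.15, numpy 2.4.6, pandas 2.3.3 and scipy 1.17.1 were used.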

Additional observations from a re-analysis of the deposited data

How the results depend on the processing

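No paired analysis was possible because each condition had 1 library and no result came from a test. Under other settings, 14 values stayed within the interval of the reported value (counts within 1.5 times) and 21 moved. The 4119 members became 2456 of 5822 control regions (42.2%) with the 50% of each list of highest score, and 1713 (14.7%) with the list after depletion shortened to the control number. The median match of 400 bp was 900 bp with the shortened list and 700 bp with regions under 1 kb apart merged. The share of wider matches, 79.3%, was 86.9% where the whole control region was covered, 87.5% in the 50% of highest score, 98.6% with the shortened list and 82.8% after merging. With each chromosome left out in turn it was 78.7 to 79.9%, and the median match stayed at 400 bp. The share within 5 kb of a TSS, 53.9%, was 21.8% for canonical protein-coding TSSs and 38.9% within 2 kb. The promoter share of 24.5% was 44.5% with both sides and 5.56% for canonical TSSs. The median GC content of 65% was 57.5% with 500 bp on either side. More flanking cover was found for 51.9% within 2 kb, and KDM3B for 0.923% within 1 kb. The following were chosen after seeing the data. The share called again at 60% GC or more, 79.6%, was 72.6% for 100-bp regions, 35.8% with the shortened list and 89.8% with 500-bp flanks. Under 50% GC, 2.54% became 1.97, 0.58 and 6.7%. The causes were not tested. Unknown depth limits all counts and widths.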

Other observations

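No member held 2 GGAAT units in a row, the unit of human satellites II and III, where a count of 0 allows a share of up to 0.0728%, beside 13 control-only regions (0.173%). The 60 new regions that held them (0.0707%) lie within that limit. No member held 2 telomeric TTAGGG units in a row, as against 1 control-only region and 5 new regions. A CENP-B box was found in 3 members (0.0728%), 5 control-only regions (0.0664%) and 6 new regions (0.00707%). Members within 2 Mb of an assembly gap of at least 1 Mb numbered 108 (2.62%), beside 3.09% of the assembled genome. A 5′ UTR, the start of a transcript before its coding part, held 55 members (1.34%), 0.146% of control-only regions and 0.114% of the genome.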
